A study of Mus musculus with 3 samples.

Results

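Thyroid hormone handling was followed through 8 genes, Dio2, Dio3, Slco1c1, Crym, Thra, Thrb, Trhde and Ttr, taken by gene symbol from the 32285 genes of a single-cell RNA sequencing data set of the mouse hypothalamus. Each symbol belonged to a single gene identifier, so all 8 genes were measured. The study asked whether heat exposure leaves lasting differences in the makeup and RNA of hypothalamic cells, in male mice that were 8 weeks old. It comprised 3 libraries, 1 per group: HS, taken in the heat-exposed state, QS, taken in recovery after the exposure, and PF, taken from pair-fed mice that served as the control matched in food intake. The sources used here do not give genotype, strain, the length of exposure or recovery, or how many mice went into a library, and RT mice were not analysed here. Tissue was digested with collagenase II, per the labels, so the values describe the cells that survive dissociation.

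Thyroid hormone reaches the brain mostly as the prohormone thyroxine (T4), which crosses vessel walls and glial membranes through transporters such as that encoded by Slco1c1. Dio2 encodes the deiodinase that turns thyroxine into the active hormone T3, and Dio3 encodes the deiodinase that inactivates both. Crym encodes mu-crystallin, a cytosolic protein that binds T3. Thra and Thrb encode the nuclear receptors, Trhde the membrane enzyme that degrades thyrotropin-releasing hormone (TRH), and Ttr transthyretin, the carrier of thyroid hormone in cerebrospinal fluid that the choroid plexus makes in quantity. Tanycytes, glial cells that line the floor of the third ventricle and send processes to the vessels of the hypothalamus, are known as a hypothalamic site of Dio2 and Trhde.

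The files held 12510 barcodes for HS, 11720 for QS and 12836 for PF, with 103891747, 93295920 and 100727912 UMIs (unique molecular identifiers, each standing for a captured transcript). After filters and removal of called doublets, 34270 cells remained, with medians of 6298 UMIs per cell in HS, 6162 in QS and 6143 in PF. Pairs of libraries shared between 37 and 51 barcodes, at most 0.435% of the smaller library. Cells were clustered without the 8 genes and without the other genes of the pathway, and clusters were named from marker lists. Of 38 clusters, 9 stayed unnamed, with 8.03% of HS, 10.9% of QS and 10.4% of PF cells. Tanycyte-like cells numbered 519 in HS, 345 in QS and 188 in PF, in 2 clusters. All 12 tanycyte markers were present at 10 CPM or more in each library, with summed levels of 6784 CPM in HS, 5207 CPM in QS and 6170 CPM in PF. Rax had 335, 232 and 346 CPM, against 1.47, 0.494 and 0.448 CPM in endothelial-like cells. Not every marker was particular to the class: Cd59a had 42.9, 70.5 and 50.7 CPM, against 119, 126 and 107 CPM in endothelial-like cells. In cluster 16 alone, Adm had 1.82, 0 and 3.40 CPM and Scn7a 5.46, 7.51 and 13.6 CPM. Cluster 16, led by Prr16, Slit2, Rax and Vcan, held 272, 207 and 121 of the tanycyte-like cells, and cluster 18, led by Col25a1, A2m and Scn7a, held 247, 138 and 67. Cluster 18 thus made up 47.6% of tanycyte-like cells in HS, 40% in QS and 35.6% in PF, and since several of the genes differ between the clusters, values are given for each cluster as well.

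Within the libraries, 3.25% of HS, 3.34% of QS and 4.45% of PF cells held fewer than 1000 UMIs. Levels are given as CPM, the share of a gene in all UMIs of a class in a library, counted per 1000000 UMIs. Intervals on levels are exact Poisson 95% intervals and those on ratios exact conditional binomial 95% intervals. Shares of cells with a UMI were taken after thinning every cell to 1000 UMIs and leaving out cells with fewer, with Clopper-Pearson 95% intervals. All of these cover counting error only. With 1 library per group there is no replicate error, so no test was made, no p-value is given, and "higher" and "lower" refer to the libraries compared. HS against PF and QS against PF both rest on the PF library. Levels of different genes are not compared with each other, and the ratio of 2 genes, Slco1c1 per Cldn5, is used only to set cell classes and libraries side by side.

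**Figure D1:**
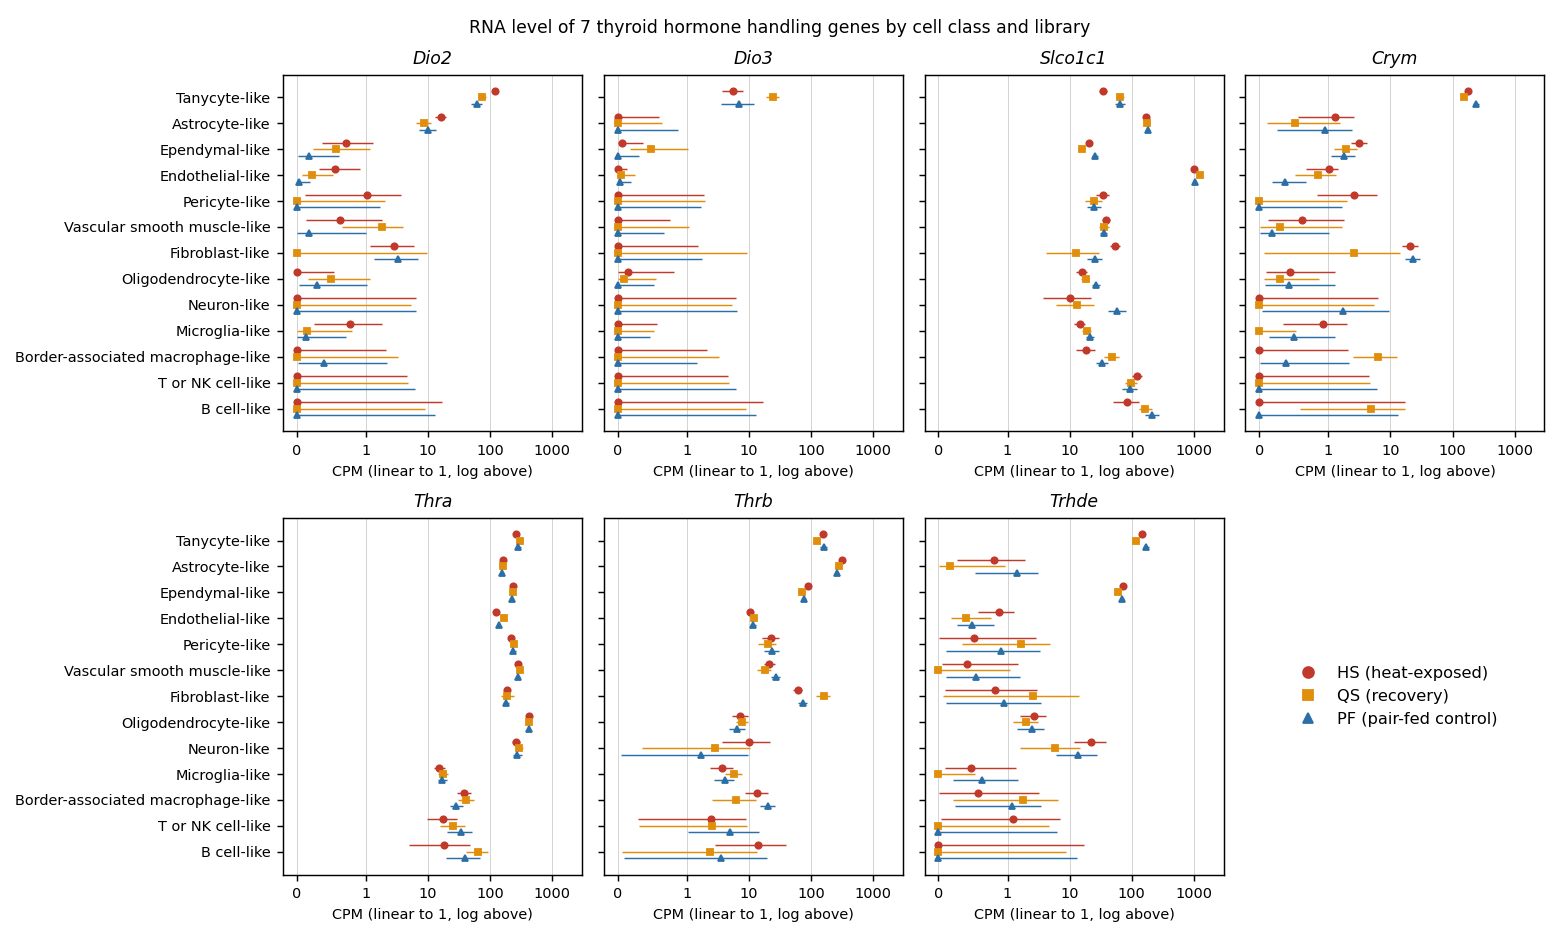
RNA level of 7 of the 8 genes (Ttr, near 0 everywhere, is left out) in the 13 classes of 20 or more cells per library, in CPM on an axis that is linear to 1 and logarithmic above; circles are HS, squares QS, triangles PF, and bars are 95% Poisson intervals. Dio2, Dio3, Crym and Trhde stand highest in tanycyte-like cells, Slco1c1 in endothelial-like cells at 996 to 1259 CPM, Thra in oligodendrocyte-like cells and Thrb in astrocyte-like cells.

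Dio2 (chromosome 12, 90724552 to 90738438, minus strand, mm10) was read mainly in tanycyte-like cells, which held 78.0% of its UMIs in HS, 73.6% in QS and 64.0% in PF. Its level there was 118 CPM in HS (108 to 128, 585 UMIs), 73.9 CPM in QS (64.4 to 84.4, 218 UMIs) and 60.5 CPM in PF (49.5 to 73.2, 105 UMIs). Astrocyte-like cells came next, at 16.2 CPM in HS, 8.51 CPM in QS and 10.0 CPM in PF, and their range over the libraries did not overlap with that of tanycyte-like cells. No other class of 20 or more cells per library exceeded 3.34 CPM, and neurons, T or NK cells and B cells held 0 UMIs. In microglia-like cells, which should lack the gene, Dio2 stood at 0.774 CPM in HS, 0.142 CPM in QS and 0.127 CPM in PF.

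The sequence upstream of the Dio2 start is shown beside that of Dio3 because these deiodinases act in opposite directions and both were read mainly in tanycyte-like cells. Sequences are those of RefSeq on GRCm38.p6, read 5′ to 3′ along the gene, and capitals mark motif matches found on either strand. The cyclic AMP response element was searched as TGACGTCA, the TATA box as TATAAA, and the CAAT box as CCAAT. Also searched were the thyroid hormone half-site AGGTCA and the homeodomain core TAATTA. Neither was found in the 250 bases before the start of Dio2, Dio3 or Slco1c1. Dio2 is shown for the 250 bases before its start (chr12:90739039-90739288, minus strand), and Dio3 for the 30 bases from position -52 to -23 (chr12:110279178-110279207, plus strand). The RefSeq start of Dio2 lies upstream of the gene span given above, and that of Dio3 inside its span.
Dio2: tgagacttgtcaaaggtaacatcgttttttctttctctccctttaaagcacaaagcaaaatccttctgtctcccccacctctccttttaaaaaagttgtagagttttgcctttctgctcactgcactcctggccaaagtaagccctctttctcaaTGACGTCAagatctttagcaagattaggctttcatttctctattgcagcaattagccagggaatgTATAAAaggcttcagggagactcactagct
Dio3: cccgCCAATtcaagctttgacTATAAAttg
In Dio2 the cyclic AMP element begins 95 bases before the start and the TATA box 30 bases before it. In Dio3 a CAAT box begins 48 and the TATA box 31 bases before the start. Another CCAAT match of Dio3, on the other strand, begins 125 bases before the start, outside the bases shown. Over the 250-base windows of 32851 RefSeq promoters, TGACGTCA was found in 1.55%, TATAAA in 12.4%, CCAAT in 33.8%, AGGTCA in 14.0% and TAATTA in 4.84%. These matches describe the letters and say nothing of what binds there.

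Dio2 was higher in HS than in PF in tanycyte-like cells by 1.95 times (1.58 to 2.42), and QS stood at 0.628 times HS (0.535 to 0.735). QS and PF differed by 1.22 times (0.964 to 1.56), an interval that includes 1. After thinning, 8.03% of HS tanycyte-like cells (5.80 to 10.8) held a Dio2 UMI, against 6.27% in QS (3.92 to 9.42) and 3.37% in PF (1.25 to 7.19). Before thinning, 182 of 519 cells in HS, 93 of 345 in QS and 46 of 188 in PF did, at median depths of 6681, 7105 and 7360 UMIs. In the thinned data, microglia-like cells gave 0% in HS (up to 0.391) and in QS (up to 0.366) and 0.0887% in PF. The difference was seen in cluster 18, where the level was 166 CPM in HS, 105 CPM in QS and 101 CPM in PF, with HS at 1.65 times PF (1.31 to 2.09). Cluster 16 held little Dio2, at 21.2 CPM in HS, 36.0 CPM in QS and 21.6 CPM in PF, with HS at 0.984 times PF (0.548 to 1.82). Weighting the clusters equally gave 1.53 times for HS against PF, so part of the ratio of the whole class lay in the larger share of cluster 18 in HS. In astrocyte-like cells, too, HS was above PF, by 1.61 times (1.11 to 2.37, 100 UMIs in HS against 42 in PF), and QS stood at 0.527 times HS (0.366 to 0.748, 49 UMIs in QS against 100 in HS). Gm26512, a gene that overlaps Dio2 on the other strand, had 57.8 CPM in HS, 52.2 CPM in QS and 50.7 CPM in PF in tanycyte-like cells. In astrocyte-like cells it had 32.6 CPM in HS (202 UMIs), 21.9 CPM in QS (126 UMIs) and 20.3 CPM in PF (85 UMIs), more UMIs than Dio2 and, like Dio2, highest in HS. The sources used here do not say whether counting used the strand, and the part of Gm26512 in the Dio2 values was not tested.

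Dio3 (chromosome 12, 110279068 to 110281097, plus strand) was read mainly in tanycyte-like cells, which held 93.3% of its UMIs in HS, 88.9% in QS and 92.3% in PF. It was sparse, with 28 UMIs in HS, 72 in QS and 12 in PF, or 5.64 CPM (3.74 to 8.14), 24.4 CPM (19.1 to 30.7) and 6.91 CPM (3.57 to 12.1). Astrocyte-like cells held 0 UMIs in each library, which allows up to 0.485 CPM in HS at 3 counts. QS was above PF by 3.53 times (1.90 to 7.15) and above HS by 4.33 times (2.76 to 6.96), and HS stood at 0.815 times PF (0.402 to 1.76). All 72 UMIs of QS lay in cluster 16, at 54.1 CPM against 12.1 CPM in HS and 12.5 CPM in PF, whereas cluster 18 held 8 UMIs in HS, 0 in QS and 1 in PF.

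Few cells carried Dio3: 14 of 519 tanycyte-like cells in HS, 17 of 345 in QS and 4 of 188 in PF. A single QS cell held 31 of the 72 UMIs, and the highest cell of HS and of PF held 9 each. Without the highest cell of each library the levels were 3.83 CPM in HS, 13.9 CPM in QS and 1.74 CPM in PF, the last from 3 UMIs. The thinned share of cells with a Dio3 UMI was 0.602% in HS (0.124 to 1.75), 1.79% in QS (0.660 to 3.86) and 0.562% in PF (0.0142 to 3.09), and these intervals overlap. Dio2 and Dio3 were found together in 3 tanycyte-like cells of HS, 1 of QS and 2 of PF. Dio3os, a separate gene whose near end lies 895 bases from Dio3 on the other strand, had 6.04 CPM in HS (30 UMIs), 17.97 CPM in QS (53 UMIs) and 12.1 CPM in PF (21 UMIs) in tanycyte-like cells.

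**Figure D2:**
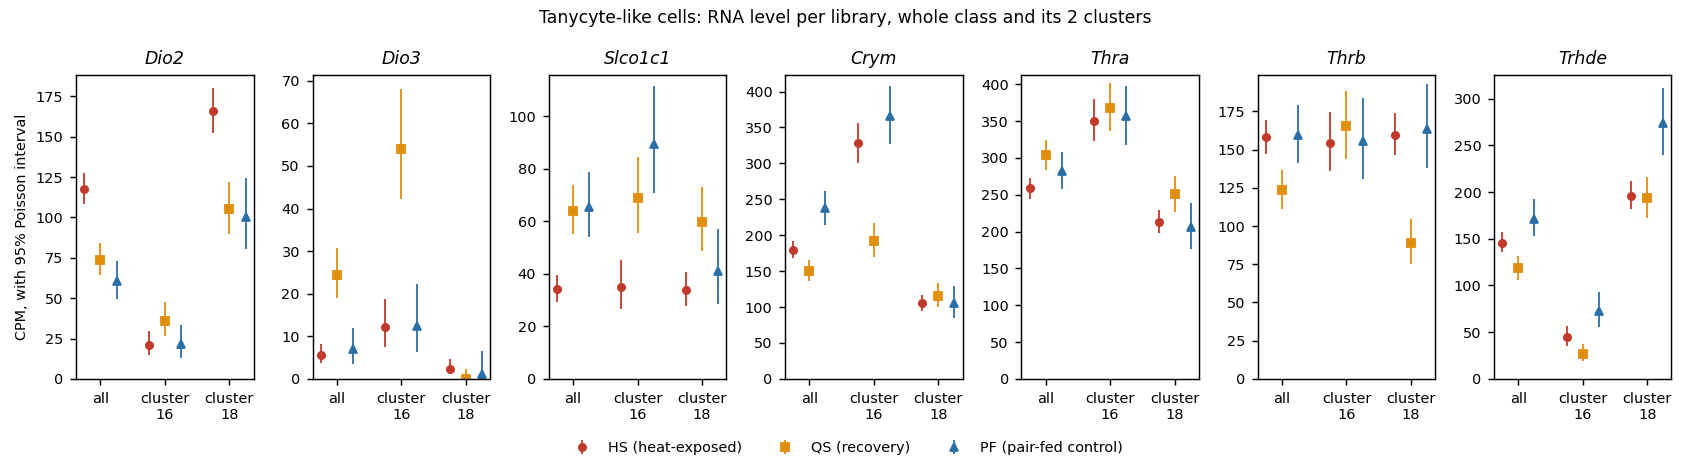
CPM of 7 genes in tanycyte-like cells, for the whole class and for clusters 16 and 18; circles are HS, squares QS, triangles PF, bars are 95% Poisson intervals, and each panel has its own axis from 0. Dio2 of HS stands above QS and PF in cluster 18, Dio3 of QS above the others in cluster 16, Crym of QS below the others in cluster 16, and Thrb of QS below the others in cluster 18.

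Slco1c1 (chromosome 6, 141524368 to 141570177, plus strand), the thyroxine transporter, was a transcript of endothelial-like cells, which held 85.2% of its UMIs in HS, 86.6% in QS and 86.0% in PF. Its level was 996 CPM in HS (985 to 1008), 1259 CPM in QS (1244 to 1274) and 1043 CPM in PF (1031 to 1055), and 60.9% of thinned endothelial-like cells in HS, 69.0% in QS and 63.0% in PF held a UMI. QS was thus 1.21 times PF (1.19 to 1.23) and 1.26 times HS (1.24 to 1.28). The level was lower in cluster 10, led by the venous genes Ackr1 and Vwf, at 668 CPM in HS, 813 CPM in QS and 684 CPM in PF. In cluster 29, led by Plvap, which marks fenestrated capillaries, it was 122 CPM in HS (86 UMIs, 42 of them in a single cell) and 44.6 CPM in PF (33 UMIs), and the 5 QS cells held 0 UMIs. The endothelial-like class of QS held fewer cells of these clusters: cluster 29 had 93 cells in HS, 5 in QS and 72 in PF, and cluster 10 had 502, 243 and 535. QS was also above PF within other clusters, at 1388 CPM in QS against 1186 CPM in PF in cluster 0, and 1434 CPM in QS against 1252 CPM in PF in cluster 3.

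The promoter of Slco1c1 is shown for contrast with those of the deiodinases, from 250 bases before the start to the base next to it (chr6:141524104-141524353, plus strand), with a CCAAT match on the other strand in capitals.
Slco1c1: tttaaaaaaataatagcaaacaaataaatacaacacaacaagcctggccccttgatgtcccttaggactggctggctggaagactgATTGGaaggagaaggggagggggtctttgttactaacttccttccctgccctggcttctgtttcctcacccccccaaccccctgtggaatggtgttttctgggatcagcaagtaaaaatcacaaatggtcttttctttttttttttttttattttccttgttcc
The window holds 0 CG pairs, against 2 in the Dio2 window and 21 in the 250 bases before the Dio3 start, and the median promoter holds 6.

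Outside the endothelium Slco1c1 had the highest mean level in astrocyte-like cells, at 172 CPM in HS, 178 CPM in QS and 185 CPM in PF, with thinned shares of 15.8%, 15.8% and 14.8%. The libraries differed little there (HS at 0.927 times PF, 0.845 to 1.02). B cell-like cells, of which there were 44, 79 and 48, ranged from 82.8 to 212 CPM and overlapped with them. Slco1c1 was set beside Cldn5, a tight junction gene of endothelium. Endothelial-like cells had 0.280 UMIs of Slco1c1 per UMI of Cldn5 in HS, 0.264 in QS and 0.276 in PF. Microglia-like cells, which should lack both genes, had 0.284 in HS, 0.294 in QS and 0.293 in PF. Tanycyte-like cells had 0.303, 0.302 and 0.343, ependymal-like cells 0.289, 0.298 and 0.353, and oligodendrocyte-like cells 0.237, 0.245 and 0.306, whereas astrocyte-like cells had 2.35, 2.75 and 2.18. In vascular smooth muscle-like cells the value was 0.689 in HS, 0.373 in QS and 0.478 in PF.

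In tanycyte-like cells Slco1c1 stood at 34.2 CPM in HS, 64.1 CPM in QS and 65.7 CPM in PF, with HS at 0.521 times PF (0.409 to 0.667) and QS at 1.87 times HS (1.51 to 2.32). Cldn5 in the same cells had 113 CPM in HS, 212 CPM in QS and 191 CPM in PF, or 0.590 times for HS against PF and 1.88 times for QS against HS. The part of endothelial RNA in the Slco1c1 ratios was not tested beyond the values that follow. All 10 endothelial markers were present in tanycyte-like cells of each library, with summed levels of 661 CPM in HS, 942 CPM in QS and 1143 CPM in PF. In the tanycyte-like cells with 0 UMIs of Cldn5 (349 in HS, 261 in QS and 126 in PF), Slco1c1 was 20.5 CPM in HS, 22.3 CPM in QS and 22.8 CPM in PF, so HS was 0.898 times PF and QS 1.09 times HS. In astrocyte-like cells with 0 UMIs of Cldn5 the level was 175 CPM in HS, 172 CPM in QS and 176 CPM in PF, close to that of all astrocyte-like cells. Border-associated macrophage-like cells gave 18.2 CPM in HS, 47.3 CPM in QS and 33.7 CPM in PF, and without Cldn5-positive cells 11.7 CPM, 4.04 CPM and 12.4 CPM, from 11, 3 and 16 UMIs, too few to read a direction from. This selection was added after the values had been seen.

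**Figure D3:**
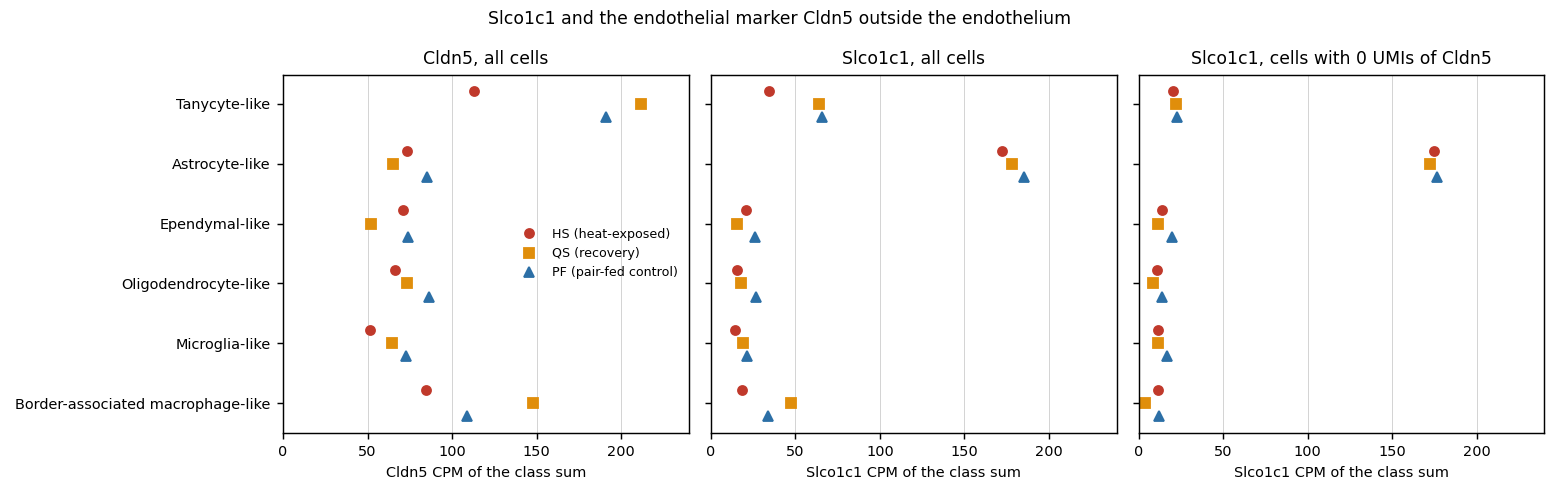
CPM of Cldn5 in all cells (left), of Slco1c1 in all cells (middle) and of Slco1c1 in cells with 0 UMIs of Cldn5 (right), for 6 classes outside the endothelium; circles are HS, squares QS, triangles PF. Slco1c1 of tanycyte-like cells differs between libraries in the middle panel. In the right panel it lies between 20.5 and 22.8 CPM, from 54 UMIs in HS, 44 in QS and 21 in PF. Slco1c1 of astrocyte-like cells stays between 172 and 185 CPM in both.

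Crym (chromosome 7, 120186380 to 120202111, minus strand), the T3-binding crystallin, was a tanycyte transcript, with 84.4% of its UMIs in that class in HS, 87.4% in QS and 79.5% in PF. The level was 179 CPM in HS (168 to 191), 150.2 CPM in QS (137 to 165) and 237 CPM in PF (215 to 261). Fibroblast-like and ependymal-like cells followed, with overlapping ranges. Fibroblast-like cells had 20.8 CPM in HS, 2.57 CPM in QS and 22.9 CPM in PF, with 1 UMI in the 70 QS cells, and ependymal-like cells had 3.14, 1.95 and 1.78 CPM. QS was 0.633 times PF in tanycyte-like cells (0.552 to 0.726) and HS 0.756 times PF (0.672 to 0.851). In cluster 16 the level was 328 CPM in HS, 192 CPM in QS and 365 CPM in PF, with QS at 0.526 times PF (0.445 to 0.622) and 0.586 times HS (0.503 to 0.681). In cluster 18 it was 105 CPM in HS, 116 CPM in QS and 105 CPM in PF, and QS was 1.10 times PF (0.850 to 1.43). HS had the largest share of cells in cluster 18, the cluster with less Crym. The low value of QS was in cluster 16, the cluster that also held its Dio3. In ependymal-like cells HS was 1.77 times PF (1.04 to 3.11), from 48 UMIs in HS against 21 in PF, and 13 of the PF UMIs lay in a single cell. The thinned share there was 0% in HS (up to 0.321), 0.201% in QS and 0.0965% in PF.

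Thra (chromosome 11, 98740638 to 98769006, plus strand), the receptor gene of wider expression, was read in every class compared. Oligodendrocyte-like cells led with 424 CPM in HS, 427 CPM in QS and 426 CPM in PF, a range that did not overlap with that of any other class. The libraries differed little here, with HS at 0.996 times PF (0.946 to 1.05). With each library clustered on its own, the level was 424 CPM in HS, 531 CPM in QS and 434 CPM in PF. Vascular smooth muscle-like cells (279, 299.8 and 285 CPM), tanycyte-like cells (259, 303 and 282 CPM) and neuron-like cells (261, 295 and 275 CPM) followed and were not separated from each other. The highest level of any cluster with 20 cells or more in each library was in the unnamed cluster 26, led by the oligodendrocyte genes Tmem163, Nfasc and Mag, at 1014 CPM in HS, 923 CPM in QS and 930.0 CPM in PF. Of the 9 classes compared between libraries, microglia-like cells were lowest, at 15.2 CPM in HS, 17.4 CPM in QS and 17.01 CPM in PF.

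No pair of libraries differed in Thra by 1.5 times in any class compared. Endothelial-like cells had 126 CPM in HS, 167 CPM in QS and 139.7 CPM in PF, and QS was 1.33 times HS (1.27 to 1.39) and 1.20 times PF (1.15 to 1.25). Within tanycyte-like cells, cluster 16 had more Thra than cluster 18 in every library, with 350.3, 368 and 356 CPM against 213, 250.4 and 206 CPM in HS, QS and PF. The last 1075 bases of Thra overlap the end of Nr1d1, a clock repressor gene on the other strand. Nr1d1 had 4.38 CPM in HS, 5.74 CPM in QS and 9.07 CPM in PF in oligodendrocyte-like cells, where Thra was highest. In endothelial-like cells it had 41.0 CPM in HS, 73.1 CPM in QS and 62.4 CPM in PF, the same order as Thra, and its part in the Thra values was not tested.

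Thrb (chromosome 14, 17660261 to 18038090, plus strand) had a narrower distribution, led by astrocyte-like cells with 320.3 CPM in HS (306 to 335), 283 CPM in QS (270 to 297) and 265 CPM in PF (249 to 281). Tanycyte-like cells (158, 123 and 159.5 CPM) and fibroblast-like cells (61.5, 159 and 73.5 CPM) followed, and their ranges overlapped. Ependymal-like cells had 90.6, 71.7 and 76.8 CPM, and oligodendrocyte-like cells only 7.31, 7.82 and 6.48 CPM in HS, QS and PF. In astrocyte-like cells HS was 1.21 times PF (1.12 to 1.30) and QS 0.884 times HS (0.828 to 0.945). Astrocyte cluster 1, led by Gpc5, Kcnd2 and Slc6a11, held 337 CPM in HS, 298 CPM in QS and 284 CPM in PF, and astrocyte cluster 12, led by Itih3 and Agt, held 149.5 CPM in HS, 179 CPM in QS and 177 CPM in PF.

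Tanycyte cluster 18 was the place of the largest Thrb difference among tanycyte-like cells, with 159.7 CPM in HS (146 to 174), 89.0 CPM in QS (75.1 to 105) and 164 CPM in PF (138 to 193). QS was there 0.544 times PF (0.428 to 0.691) and 0.558 times HS (0.460 to 0.671), whereas in cluster 16 it was 1.06 times PF (0.854 to 1.32). The thinned share of cells did not follow: 11.5% of cluster 18 cells in HS, 13.3% in QS and 16.7% in PF held a Thrb UMI, with wide intervals (8.29 to 28.5 in PF). QS was below PF in vascular smooth muscle-like cells by 0.658 times (0.479 to 0.893, 60 UMIs in QS against 150 in PF) and in border-associated macrophage-like cells by 0.312 times (0.119 to 0.691, 7 UMIs in QS against 51 in PF). In microglia-like cells, QS was 1.53 times HS (0.902 to 2.66), from 40 UMIs in QS against 24 in HS, an interval that includes 1.

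Trhde (chromosome 10, 114398823 to 114802307, minus strand), the TRH-degrading enzyme, was shared by tanycyte-like and ependymal-like cells. Tanycyte-like cells had 146 CPM in HS (135 to 157), 118 CPM in QS (106 to 131) and 172 CPM in PF (153 to 192), and ependymal-like cells 72.2 CPM in HS, 59.5 CPM in QS and 69.2 CPM in PF. These ranges did not overlap with each other or with that of neuron-like cells (22.2, 5.79 and 13.8 CPM), and no other class exceeded 2.63 CPM. Since ependymal-like cells were more numerous, they held most of the UMIs, 57.6% in HS, 64.7% in QS and 69.0% in PF. Cluster 18 was the richer tanycyte cluster, at 196 CPM in HS, 194 CPM in QS and 274 CPM in PF, against 44.9, 27.0 and 72.6 CPM in cluster 16.

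For the tanycyte-like class as a whole the Trhde differences stayed under 1.5 times, with HS at 0.850 times PF (0.742 to 0.976) and QS at 0.689 times PF (0.589 to 0.807). PF had the smallest share of cells in cluster 18, the richer cluster. Taken by cluster, HS was 0.717 times PF in cluster 18 (0.616 to 0.836) and 0.618 times PF in cluster 16 (0.436 to 0.877). QS was 0.707 times PF in cluster 18 (0.595 to 0.841) and 0.372 times PF in cluster 16 (0.240 to 0.568, 36 UMIs in QS against 64 in PF). In ependymal-like cells QS was 0.860 times PF (0.777 to 0.951) and HS 1.04 times PF (0.952 to 1.14). PF thus had the highest Trhde in both tanycyte clusters.

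Ttr (chromosome 18, 20665280 to 20674321, plus strand) was all but missing from the count matrices, with 7 UMIs in HS, 5 in QS and 10 in PF over all barcodes and at most 1 UMI in any barcode. This is 0.0674 CPM in HS (0.0271 to 0.139), 0.0536 CPM in QS (0.0174 to 0.125) and 0.0993 CPM in PF (0.0476 to 0.183), too few for any comparison. No cluster was named as choroid plexus. Of the 10 choroid plexus markers, Folr1 had 1299 UMIs in HS, 936 in QS and 1177 in PF, and Clic6 had 755, 808 and 718. Sostdc1 had 423, 341 and 326, and Otx2 had 385, 411 and 263. The others were sparser: Prlr had 107, 33 and 67, Kl 63, 36 and 59, and Kcnj13 56, 35 and 51. Slc4a5 had 53, 59 and 77, Tmem72 14, 15 and 11, and Kcne2 0, 2 and 1.

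**Figure D4:**
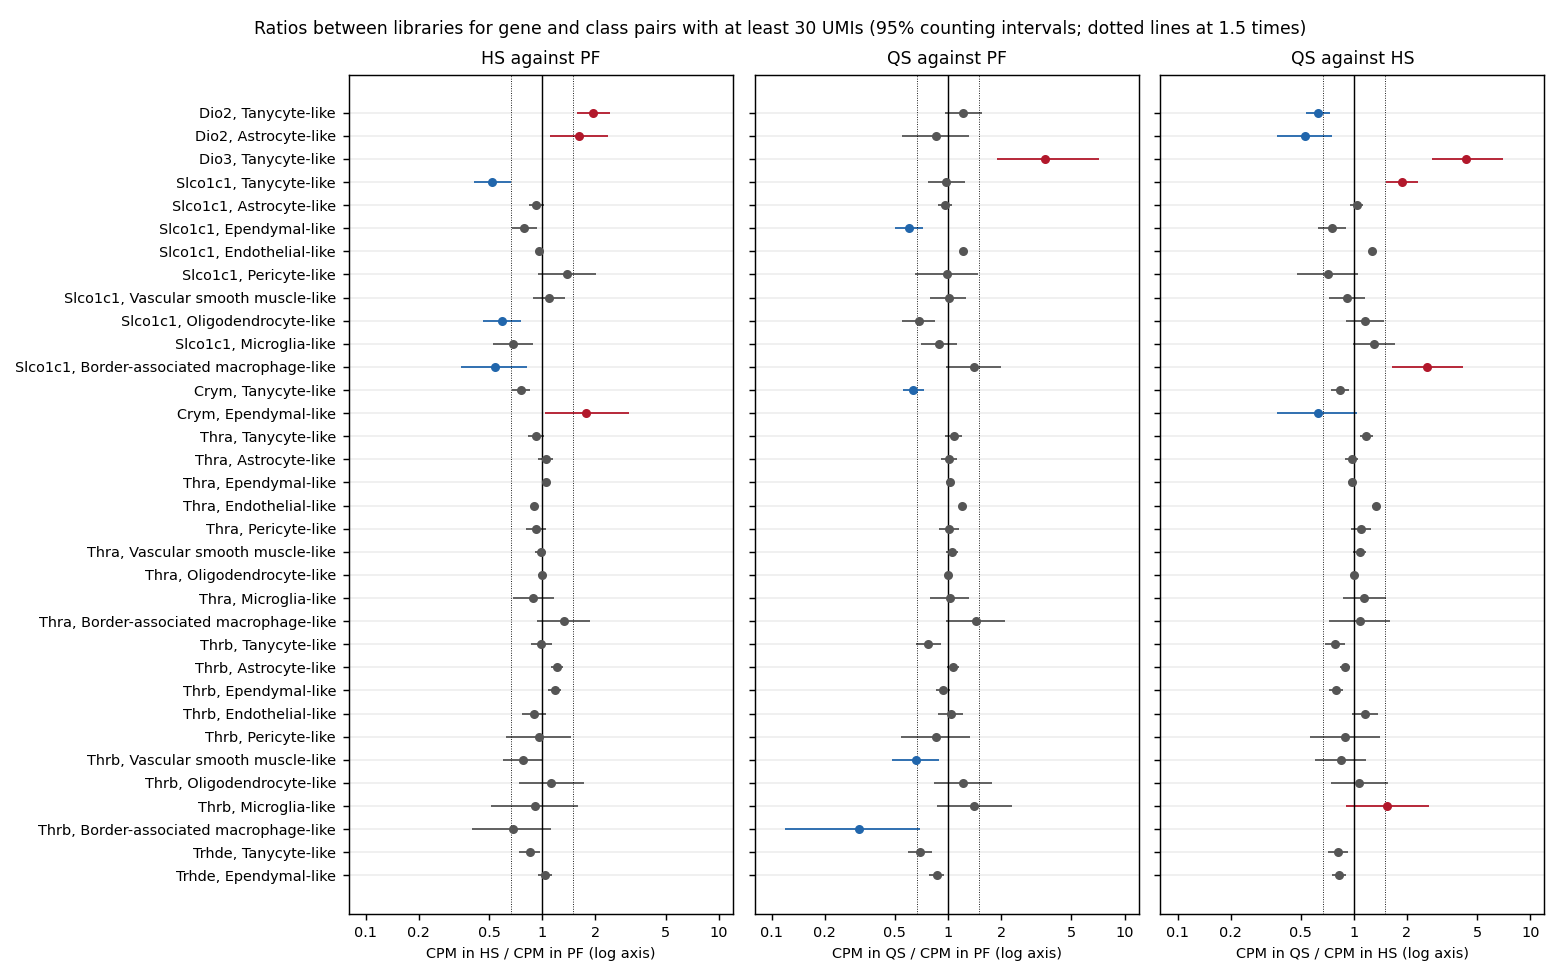
Ratios of CPM between libraries, on a logarithmic axis, for each pair of gene and class with at least 30 UMIs in the library with more; bars are 95% counting intervals, the solid line marks 1 and dotted lines mark 1.5 times either way, red is 1.5 times or more higher, blue 1.5 times or more lower. Most Thra and Thrb pairs lie near 1, and the widest excursions are Dio3 of tanycyte-like cells and Slco1c1 and Thrb of border-associated macrophage-like cells.

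Ratios were counted over the 9 classes of 100 or more cells per library, for pairs of gene and class with at least 30 UMIs in the library with more. In HS against PF, 6 of 33 pairs differed by 1.5 times or more, 3 higher (Dio2 in tanycyte-like and astrocyte-like cells, and Crym in ependymal-like cells) and 3 lower (Slco1c1 in tanycyte-like, oligodendrocyte-like and border-associated macrophage-like cells). Over all genes of the same classes the share was 5.79%, or 10.3% in tanycyte-like cells. In QS against PF, 5 of 33 pairs did, 1 higher (Dio3 in tanycyte-like cells) and 4 lower (Crym in tanycyte-like cells, Slco1c1 in ependymal-like cells and Thrb in vascular smooth muscle-like and border-associated macrophage-like cells), against 6.99% of all genes and 9.39% in tanycyte-like cells. In QS against HS, 7 of 33 did, 4 higher and 3 lower, against 7.74% of all genes and 8.07% in tanycyte-like cells. The 7 were Dio3 and Slco1c1 in tanycyte-like cells, Slco1c1 in border-associated macrophage-like cells and Thrb in microglia-like cells (higher), and Dio2 in tanycyte-like and astrocyte-like cells and Crym in ependymal-like cells (lower). Among cells with 0 UMIs of Cldn5, Slco1c1 in HS stood at 0.898 times PF in tanycyte-like cells (54 UMIs against 21). It stood at 0.781 times in oligodendrocyte-like cells (48 against 57) and 0.944 times in border-associated macrophage-like cells (11 against 16). Among such cells QS stood at 0.572 times PF in ependymal-like cells (88 against 105). The part of endothelial RNA in these counts was not tested. The median log2 ratio over the 33 pairs was -0.07 in HS against PF, 0.01 in QS against PF and 0.01 in QS against HS. In tanycyte-like cells alone it was -0.18, -0.04 and -0.26 over 6, 7 and 7 genes, against -0.08, -0.05 and 0.04 over all genes counted there.

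The rest of the pathway was followed through 58 further genes in 7 groups, of which 43, 43 and 44 had a pair with enough UMIs in the comparisons HS against PF, QS against PF and QS against HS. In HS against PF, 16 of 282 pairs of gene and class were 1.5 times or more higher and 8 lower. In QS against PF, 7 of 278 were higher and 21 lower, and in QS against HS 1 of 279 was higher and 25 lower. The backgrounds by direction over all genes are 2.69% higher and 3.09% lower, 2.51% and 4.48%, and 3.16% and 4.58% for the same comparisons. Receptors, partners and cofactors were the steadiest group, with 2 higher and 1 lower of 114 pairs in HS against PF and 0 of 112 in QS against HS. Hormone transporters were higher in 4 and lower in 1 of 62 pairs in HS against PF, 1 and 6 of 62 in QS against PF, and 0 and 7 of 63 in QS against HS. Some of these transporters were read outside their class of highest level. Slco1a4, highest in endothelial-like cells, was counted lower in ependymal-like cells, at 31.8 CPM in HS, 19.3 CPM in QS and 32.3 CPM in PF. It was also counted lower in astrocyte-like cells in QS against PF. The part of RNA from other classes in these pairs was not tested. T3 target genes were higher in 5 and lower in 0 of 30 pairs in HS against PF, 2 and 3 of 28 in QS against PF, and 0 and 6 of 30 in QS against HS. Some of these were Thrsp outside tanycyte-like cells, its class of highest level, with values given below. Among TRH and TSH genes 5 of 42 pairs were lower in HS against PF, 9 of 41 in QS against PF and 8 of 40 in QS against HS. Of these, 4, 8 and 7 were the pituitary hormone genes Cga and Tshb read in other classes. A single pair was higher, Tshr in endothelial-like cells in HS against PF, at 1.26 CPM in HS (36 UMIs) and 0.655 CPM in PF (19 UMIs). In endothelial-like cells Cga had 289 UMIs in HS, 2 in QS and 424 in PF. Pituitary or pars tuberalis-like cells numbered 118 in HS, 7 in QS and 168 in PF, and their part in these counts was not tested.

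Among hormone transporters, Slc16a10, a transporter of aromatic amino acids and T3, had 74 UMIs in HS, 14 in QS and 8 in PF in tanycyte-like cells, with HS at 3.23 times PF (1.56 to 7.76) and QS at 0.319 times HS (0.166 to 0.569). Its highest level was in border-associated macrophage-like cells, at 816 CPM in HS, 865 CPM in QS and 678 CPM in PF. Slco1a4, an endothelial organic anion transporter, had 1528 CPM in HS, 2005 CPM in QS and 1579 CPM in PF in endothelial-like cells, and Slc7a5, which carries large neutral amino acids and iodothyronines, had 652 CPM in HS, 622 CPM in QS and 605 CPM in PF. Slco2b1 was lower in QS than in HS in astrocyte-like cells (0.537 times, 0.340 to 0.834, 32 UMIs in QS against 64 in HS).

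Tshr, the thyrotropin receptor through which the pars tuberalis is known to act on tanycytes, had 223 CPM in HS, 221 CPM in QS and 222 CPM in PF in tanycyte-like cells, with HS at 1.01 times PF (0.896 to 1.13). In endothelial-like cells Tshr of QS was 0.535 times HS (0.272 to 1.002), an interval that includes 1. Its level there was 1.26 CPM in HS (36 UMIs), 0.674 CPM in QS (15 UMIs) and 0.655 CPM in PF (19 UMIs). The part of RNA from other classes in these values was not tested. Klf9, a target of thyroid hormone and of glucocorticoid receptors, was highest in vascular smooth muscle-like cells, at 568 CPM in HS, 516 CPM in QS and 568 CPM in PF. Its values in classes where the libraries differed are given too, chosen after they had been seen. It had 394 CPM in HS, 330.2 CPM in QS and 246 CPM in PF in tanycyte-like cells, with HS at 1.60 times PF (1.44 to 1.78). In astrocyte-like cells it had 351 CPM in HS, 204 CPM in QS and 265 CPM in PF. Thrsp, a thyroid hormone responsive gene of lipid synthesis, had 396 CPM in HS, 367 CPM in QS and 418 CPM in PF in tanycyte-like cells. It differed more in other classes, also chosen after the values had been seen, at levels far below that of tanycyte-like cells. In ependymal-like cells Thrsp was 1.74 times PF in HS (1.16 to 2.65) and 1.60 times PF in QS (1.04 to 2.50). It had 5.30 CPM in HS (81 UMIs), 4.89 CPM in QS (60 UMIs) and 3.05 CPM in PF (36 UMIs) there. In oligodendrocyte-like cells HS was 1.62 times PF (1.08 to 2.48) and QS 0.603 times HS (0.414 to 0.875), at 9.35 CPM in HS, 5.64 CPM in QS and 5.76 CPM in PF. In endothelial-like cells QS was 0.565 times PF (0.468 to 0.680) and 0.573 times HS (0.474 to 0.690). Rxra, the partner of both receptors, was 2.02 times PF in HS (1.29 to 3.30) and 1.82 times PF in QS (1.12 to 3.05) in tanycyte-like cells, from 133 UMIs in HS and 71 in QS against 23 in PF. Nefm, a neurofilament gene, was 2.41 times PF in QS (1.19 to 5.40, 41 UMIs in QS against 10 in PF) and 1.96 times PF in HS (0.989 to 4.30).

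Sult1a1, a sulfotransferase that can conjugate iodothyronines, was highest in border-associated macrophage-like cells, at 67.0 CPM in HS, 58.9 CPM in QS and 36.1 CPM in PF. In astrocyte-like cells QS was 0.479 times HS (0.353 to 0.645). Aldh1a1, which makes retinoic acid and binds thyroid hormone, was higher in QS than in PF in endothelial-like cells (1.70 times, 1.34 to 2.15) and in pericyte-like cells (1.66 times, 1.04 to 2.66) and lower in ependymal-like cells (0.525 times, 0.305 to 0.882). It was also lower in HS than in PF in ependymal-like cells (0.527 times, 0.320 to 0.857). Aldh1a1 was highest in astrocyte-like cells, at 136 CPM in HS, 102 CPM in QS and 99.3 CPM in PF. Ependymal-like cells had 1.96 CPM in HS (30 UMIs), 1.95 CPM in QS (24 UMIs) and 3.72 CPM in PF (44 UMIs). Endothelial-like cells had 7.24, 7.54 and 4.44 CPM, and pericyte-like cells 14.3, 25.5 and 15.4 CPM, in HS, QS and PF. The part of RNA from other classes in these values was not tested. Mme, which encodes the peptidase neprilysin, was 1.93 times PF in HS in ependymal-like cells, from 30 UMIs in HS against 12 in PF, an interval of 0.960 to 4.14.

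Genes of like pattern were sought by Pearson correlation of log2(CPM + 1) over 39 points, 13 classes in 3 libraries, among 9016 genes. The points share libraries and classes, so the coefficients are descriptions. For Dio2 these were A2m (0.92), Cldn10 (0.91) and Pdzph1 (0.90), for Dio3 Fndc3c1 (0.93), Il1rapl2 (0.92) and Gpr50 (0.91), and for Crym Fgf10 (0.93), Frzb (0.90) and Col23a1 (0.89). For Trhde they were Fstl4 (0.95), Togaram2 (0.94) and Rnf138rt1 (0.93), and for Slco1c1 Sox7 (0.89), Sox17 (0.88) and Ly6c1 (0.88). Thra was most like Dmwd (0.95), Atp6v0e2 (0.94) and Ndufs5 (0.93), and Thrb most like Prodh (0.92), Sh3pxd2b (0.91) and Antxr1 (0.90). Ttr, at a handful of UMIs, gives no pattern to match.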

How the data were processed

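UMI counts per gene and barcode were deposited by the authors as 10x matrices. They were made with Cell Ranger against mm10, in version 7.0.1 per the file headers but 5.0.0 per the submitters' processing notes. Seurat 3.1.2 is listed there too. The sources used here do not say whether intronic reads were counted. Barcodes were kept with at least 500 UMIs, 200 genes and at most 20% mitochondrial UMIs, and doublets called by Scrublet (expected rate 0.8% per 1000 barcodes) were removed, 672 in HS, 727 in QS and 784 in PF. Cells were clustered together without integration in Scanpy 1.11.5 (2000 variable genes, 30 components, 15 neighbours, Leiden resolution 1). The 66 genes of the pathway, the 8 described ones included, were kept out of the clustering. A cluster was named from at least 3 markers found in 25% of its cells at 4 times the median cluster, and only if no second class scored above 60% of the first. These naming thresholds were set during the analysis, and names are written "-like". UMIs were summed per class and library. The ratio and interval code was tested on simulated data.

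The 8 genes, the gene lists and the size of 1.5 times with 30 UMIs were chosen with earlier results of these data known. Further pathway genes are named where they are among the 5 largest ratios per direction and comparison or the 3 highest levels of their group. Tshr, Thrsp and Klf9 were named by level. A gene that the rule names is not reported here. Positions are those of GENCODE release 21 for mouse on mm10, 1-based. RefSeq promoters were at hand for 5 of the 8 genes, and 3 are shown.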

Additional observations from a re-analysis of the deposited data

How the results depend on the processing

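With 1 library per group, all differences are between libraries, and batch, animal and condition cannot be told apart. No paired analysis was possible because each group had 1 library. The class with the highest level of each gene in each library was the same in 24 of 24 cases under each of 5 alternatives, the 24 including Ttr at a few UMIs. The matrices hold no empty droplets, so free RNA was not measured. Its profile was taken as the summed UMIs of all barcodes of a library, at an assumed 5%. The count of pairs at 1.5 times or more in QS against PF, 5 as reported, was 3 with doublets kept, 8 with free RNA subtracted at 5% and 3 with every cell weighted equally. In QS against HS, 7 as reported, it was 3 with every cell weighted equally and 3 without the 1% of cells with most UMIs of the gene. In HS against PF, 6 as reported, it ranged from 4 to 9. Thrb in microglia-like cells turned round in QS against HS, to 0.989 with doublets kept and 0.921 without the 1% of cells with most UMIs, and Crym in ependymal-like cells to 1.0001 with every cell weighted equally. Among alternatives added after seeing the data, Crym in QS against PF was 1.10 in tanycyte cluster 18 alone, Dio2 in QS against HS was 1.70 in cluster 16 alone, and Slco1c1 of border-associated macrophage-like cells in QS against HS was 0.346 in cells without Cldn5, from 3 UMIs in QS against 11 in HS, under the minimum of 30. The causes were not tested. Counting only intervals that leave out 1 gave 6, 5 and 5 pairs in HS against PF, QS against PF and QS against HS. The ratio of Dio3 to PF rests on 12 UMIs in 4 PF cells.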
